A study of Saccharomyces cerevisiae with 593 samples.

Results

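The core of the RNA exosome of Saccharomyces cerevisiae is described here through the 10 genes that encode it, taken from the array by gene symbol alone. Each gene has 1 named oligo, spotted in 6 copies, so that 10 oligos of the 1457 named oligos, and 10 genes of the 982 named genes, are concerned. The ring of the complex is built from the RNase PH-like proteins of SKI6 (YGR195W, also called RRP41), RRP42 (YDL111C), RRP43 (YCR035C), RRP45 (YDR280W), RRP46 (YGR095C) and MTR3 (YGR158C). The cap that lies on the ring is built from the RNA-binding proteins of RRP4 (YHR069C), RRP40 (YOL142W) and CSL4 (YNL232W). DIS3 (YOL021C, also called RRP44) encodes the subunit that cuts RNA. The exosome degrades RNA from its 3′ end. In yeast the ring has no catalytic activity of its own and threads RNA from the cap to DIS3, and in the nucleus the exonuclease encoded by RRP6 joins the core. Nuclear exosomes trim ribosomal and small nucleolar RNA precursors and remove faulty transcripts, and cytoplasmic exosomes, helped by the Ski complex, degrade messenger RNA.

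The arrays compared RNA of a treated or mutant culture with RNA of a control culture in 2 colours, and were designed to follow splicing under stress. The 593 arrays belong to 311 array identifiers, of which 282 were run in both dye orientations. Identifiers that share strain, exposure, duration and control form 195 groups, 79 of them with 2 or more replicates. Nothing in the labels tells separate cultures from repeats of one, so p-values rest on the spread between these samples only. Except for the rrp6 strain over wild type, that spread was estimated for each oligo over all 79 groups at once. Values of other groups therefore enter each p-value. Wild-type cells were exposed for 5, 10, 20 and 40 min to heat at 42 C, 5 ug/mL SMM, LiCl at 300 mM, NaCl at 0.5 M, or KCl or sorbitol at 1 M, or moved to medium without amino acids, glucose, nitrogen, inositol or phosphate. These were set over wild-type cells of the same time, here called untreated, and a second heat course had time 0 cells as its control. Sample titles call such untreated controls mock treated, also in courses of other strains. Cells in 50 mM of the histidine synthesis inhibitor 3-AT, 200 ng/mL of the TOR inhibitor rapamycin, 1 mg/mL of the kinase inhibitor wortmannin, 20 uM of the casein kinase 2 inhibitor TBB, or the reducing agent DTT at 1 or 10 mM were set over wild-type cells taken before treatment. The hog1, rrp6, edc2 and ckb1 ckb2 strains in KCl, and the his3 and HIS3 repaired strains without histidine, were set over the same strain untreated. The ckb1 ckb2 strain in rapamycin was also set over itself untreated, and in 3-AT over itself before treatment. In 3-AT, KCl or rapamycin it was set directly over wild-type cells given the same. The ckb1 and ckb2 strains in 3-AT, and the cka1, cka2, ckb1 and ckb2 strains in SMM, were set over the same strain before treatment. Before treatment, the ckb1, ckb2 and ckb1 ckb2 strains were also set over wild-type cells. In 13 identifiers the rrp6 strain was set directly over wild-type cells given the same treatment or none. Combined treatments were 3-AT with KCl, TBB, rapamycin or nitrogen depletion, and TBB with KCl or rapamycin. 3-AT with KCl or nitrogen depletion was set over untreated cells, and 3-AT with rapamycin over cells before treatment. 3-AT with TBB was set over 3-AT alone, TBB alone or cells before treatment. TBB with KCl was set over KCl alone or untreated cells, and TBB with rapamycin over rapamycin alone or TBB alone.

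All values are log2 ratios of treated over control, on which 1 stands for a doubling and -1 for a halving, and an oligo was called when its limma p, adjusted over the 1457 named oligos, was under 0.05. Array medians lay from -0.0391 to 0.0477. A ratio from a whole culture cannot tell a change in every cell from a change in some cells, and cannot tell fewer transcripts per cell from fewer cells that hold them. The identifiers form 9 sets by their first part, here called sets A to I. The 28 identifiers of set B were run with the treated RNA in Cy5 only, and 20 of the 79 replicated groups hold 1 of them. In the same group, the set B replicate was below the other replicate in 20 of 20 groups for RRP42, 18 of 18 for RRP45, 18 of 20 for RRP43, 17 of 20 for RRP46 and 8 of 20 for RRP4. The median of that difference was -0.57 for RRP46, -0.52 for RRP45, -0.03 for MTR3 and 0.06 for RRP4. Across identifiers with both orientations, the oligos of RRP42, RRP45, RRP40, RRP46 and RRP43 read lower with the treated RNA in Cy5, by a median dye effect of -0.25, -0.24, -0.22, -0.18 and -0.12, while the other 5 members lay between -0.06 and -0.01. For 7 identifiers of set C, namely rapamycin at all 4 times, nitrogen depletion at 20 and 40 min and wortmannin at 5 min, the treated RNA is labelled as the second channel. After the sign change this calls for, they correlated over all named oligos with their own replicates at a median of -0.40 (12 pairs), against 0.55 for all other pairs, so their direction is not settled. The pairs differed by treatment. In rapamycin at 40 min the unsettled identifier correlated at -0.89 with both others, which correlated at 0.88 with each other. At 20 min it correlated at -0.51, -0.87 and -0.84 with the others, and they at 0.51, 0.47 and 0.70. At 10 min its values were -0.29 and -0.54. In rapamycin at 5 min, nitrogen depletion and wortmannin the pairs lay between -0.20 and 0.01. All 7 identifiers were used as labelled. RRP6 itself had log2 ratios from -3.40 to -0.85 in the 13 identifiers of its deletion strain over wild type, all below 0. The HOG1 oligo checks no label, since both channels of the hog1 arrays lack the gene. It read -0.21 to -0.05 in 8 identifiers. Both channels also lack RRP6 in the 4 identifiers of the rrp6 strain in KCl over the same strain untreated. There the RRP6 oligo read 0.38 to 0.86 (median 0.42). Ratios of this size thus occurred for an oligo whose gene is deleted in both channels, and their source was not tested.

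After 20 min and with every identifier used as labelled, 18 of 120 member values of wild-type cells in 12 treatments were called, in 9 of the treatments, with at most 4 members in one of them. MTR3 fell in 6 treatments, RRP46 fell in 3 and rose in KCl, and RRP43 rose in KCl. With the set C identifiers turned or left out, 7 members fell in rapamycin, MTR3 among them. The share of members called was close to the share of all oligos in most treatments, and so is not itself a result about the exosome. In KCl 2 of 10 members were called against 29.2% of all named oligos, in LiCl 4 against 33.8%, in NaCl 1 against 15.5%, in heat 2 against 25.2%, without amino acids 3 against 22.7%, without glucose 2 against 29.1%, in wortmannin 2 against 10.7%, in 3-AT 1 against 9.13% and in rapamycin 1 against 2.47%. No member was called in SMM, where 6.18% of all oligos were called, or without nitrogen or without inositol, where 0.137% were called in each case. At an unadjusted p under 0.05 these 3 treatments also had 0 members. Without nitrogen 1 of the 2 replicates has an unsettled direction, and they correlated at -0.20 over the named oligos. Their mean may therefore join opposed signs, and the absence of calls there says little.

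**Figure D1:**
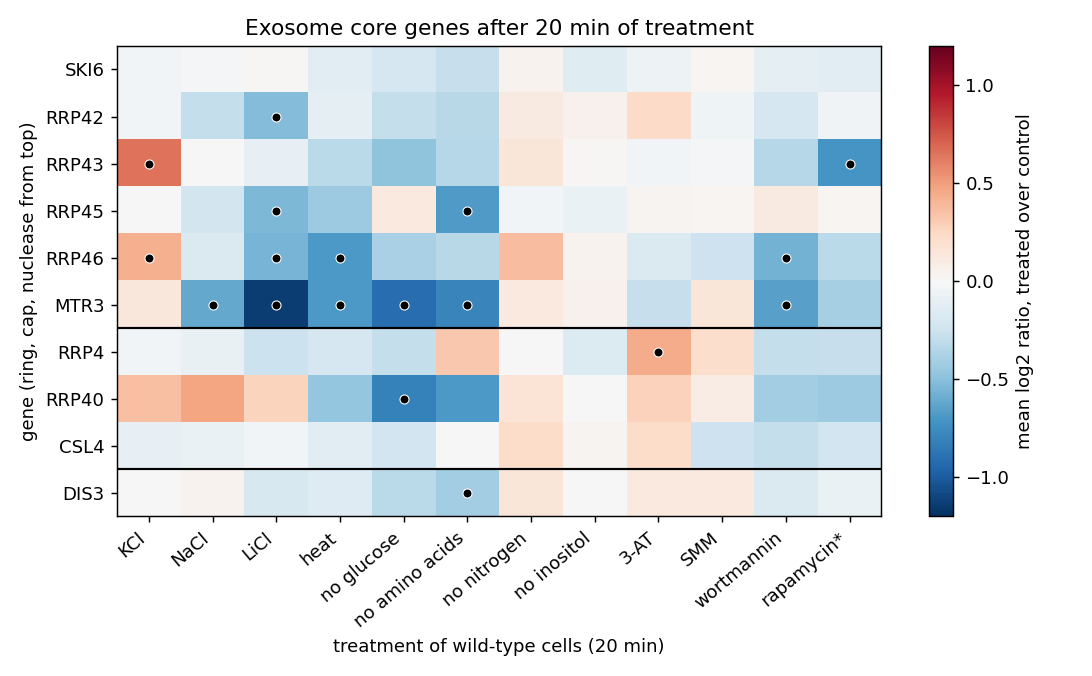
Mean log2 ratio of treated over control for the 10 exosome core genes (rows, ring above cap above nuclease) after 20 min in 12 treatments of wild-type cells (columns), with a dot where limma's adjusted p was under 0.05. The MTR3 row is blue with a dot in 6 columns, and RRP43 and RRP46 are red with a dot in KCl. The star marks rapamycin, where 1 of 4 replicates has an unsettled direction. In the no nitrogen column, which has no star, 1 of 2 replicates has an unsettled direction.

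At 5, 10 and 40 min of the same single treatments, 44 of 360 member values (12.2%) were called, 10 upward and 34 downward, against 12.8% of all oligo values. Over all 79 replicated groups of every strain and combination, 92 of 790 member values (11.6%) were called, against 11.4% of all. By direction, 16 member values rose (2.03%) against 5.63% of all oligos, and 76 fell (9.62%) against 5.74%. Without the 20 groups that hold a set B replicate, 16 of 590 member values rose (2.71%, against 4.22% of all) and 27 fell (4.58%, against 4.17%). With the set C identifiers turned, 20 of those 590 rose (3.39%, against 6.17% of all) and 42 fell (7.12%, against 6.1%), and with them left out 19 rose (3.22%, against 6.08%) and 41 fell (6.95%, against 6.12%). The groups with a set B replicate are all those of heat over cells of the same time, SMM, no glucose, no amino acids and 3-AT with KCl, so leaving them out also changes the treatments. These shares were not tested.

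MTR3, a ring subunit, had the most calls downward. It fell in 22 of the 79 groups and rose in none as labelled (26 and 1 with the set C identifiers turned, 25 and 1 with them left out), while the median named oligo was called in 8, and its group means reached from -1.203 to 0.45. In 300 mM LiCl its log2 ratios at 20 min were -0.66, -1.49 and -1.28, with a mean of -1.14 ± 0.43 (SD, n = 3), a 2.21-fold lower level (limma adjusted p = 1.69e-10). At 10 min they were -0.89, -1.53 and -1.19. MTR3 was below 0 in all 12 identifiers of wild-type LiCl, the highest being -0.40, and it was called at 5, 10, 20 and 40 min with means of -0.70, -1.203, -1.14 and -0.94. In 0.5 M NaCl the ratios at 20 min were -0.47 and -0.75, and their mean of -0.61 was called (limma adjusted p = 0.0127), as was -0.62 at 10 min. The means of -0.45 at 5 min and -0.21 at 40 min were not called, and all 8 NaCl identifiers were below 0. With either NaCl replicate left out (-0.75 or -0.47 remaining), the 20 min call was lost. In 1 M KCl the ratios at 20 min were 0.17, 0.31, 0.35 and -0.27, with a mean of 0.14 ± 0.28 (SD, n = 4) that was not called. The low value came from set H. At 10 min the set F replicate was also low, at -0.72, against -0.13, 0.23 and 0.01. At 40 min sets A, G and H gave -0.10, -0.05 and -0.15. With 1 replicate from set F or H at a time, array set and culture cannot be told apart. In 1 M sorbitol, with 1 identifier a time, it lay between -0.24 and 0.03.

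MTR3 was also lower in heat and under depletion. At 42 C the 2 replicates read -0.67 and -0.84 at 5 min, -1.19 and -0.67 at 10 min, -0.79 and -0.58 at 20 min, and -0.95 and -0.54 at 40 min, and all 4 means were called (at 20 min not without the set A replicate). In the second heat course, over cells of time 0, it read -1.03, -0.81, -0.26 and 0.17 at the same times, so that the 40 min values of both courses lie on opposite sides of 0. Without glucose the replicates at 20 min were -0.88 and -0.95 (mean -0.91, limma adjusted p = 4.45e-05), and MTR3 was called at every time. Here set B and set F gave nearly the same value. Without amino acids the replicates were close to each other, at -0.83 and -0.76 at 20 min (mean -0.80, limma adjusted p = 0.000575), after means of -0.14 at 5 min and -0.16 at 10 min, which were not called. In wortmannin at 20 min they were -0.77 and -0.53 (mean -0.65, limma adjusted p = 0.0182), a call that needs both replicates. In 3-AT the means went from 0.45 at 5 min to -0.28 at 20 and 40 min, and none was called.

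**Figure D2:**
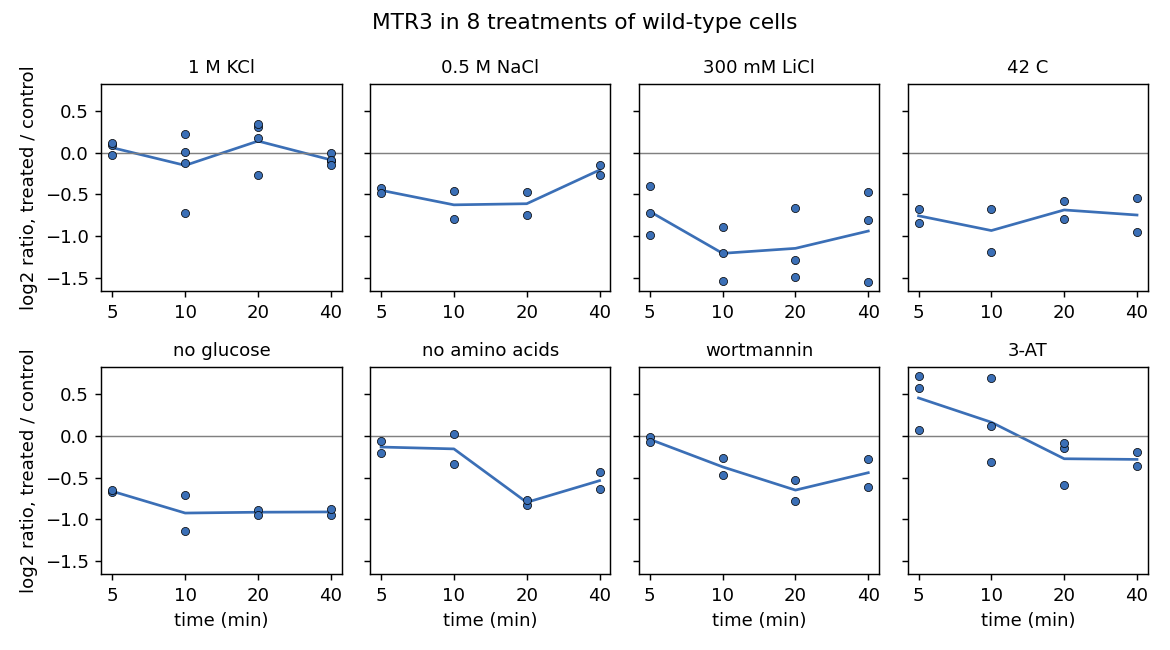
Log2 ratio of MTR3 (vertical axis) over time in min (horizontal axis, evenly spaced steps) in 8 treatments of wild-type cells, with 1 point per replicate and a line through the means. With every identifier as labelled, all points lie below 0 in NaCl, LiCl, heat over cells of the same time, no glucose and wortmannin. The KCl points lie on both sides of 0. In wortmannin at 5 min 1 of 2 replicates has an unsettled direction.

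RRP43 and RRP46, ring subunits that the cell needs to live, rose in 1 M KCl. RRP43 had log2 ratios of 0.56, 0.87, 0.65 and 0.50 at 20 min, with a mean of 0.65 ± 0.16 (SD, n = 4), a 1.57-fold higher level (limma adjusted p = 0.00318). RRP46 had 0.33, 0.58, 0.42 and 0.38, with a mean of 0.43 ± 0.11 (SD, n = 4; limma adjusted p = 0.0102). All 4 replicates of both genes were above 0, and the 3 array sets gave 0.56, 0.76 and 0.50 for RRP43 and 0.33, 0.50 and 0.38 for RRP46. The call of RRP46 was lost without replicate 2 (0.38) and in a single dye orientation: with the treated RNA in Cy5 only, its mean was 0.11 (limma adjusted p = 0.595), while that of RRP43 was 0.48 (limma adjusted p = 0.028). RRP43 was also called at 10 min (0.45, limma adjusted p = 0.0433; lost without any 1 replicate) and 40 min (0.62), and RRP46 at 40 min (0.46, lost without the set H replicate, 0.39). With the treated RNA in Cy5 only, the RRP43 call at 10 min was lost (0.31, limma adjusted p = 0.161), that at 40 min was kept (0.46, limma adjusted p = 0.0363), and the RRP46 call at 40 min was lost (0.17, limma adjusted p = 0.37). In that orientation 4 other members were called downward at 10 min (CSL4, RRP42, RRP45 and SKI6) and 3 at 40 min (CSL4, RRP42 and RRP45). At 5 min their means were 0.48 and 0.26, not called.

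The direction of these genes was the same in other strains in KCl. KCl over untreated cells of the same strain had 36 identifiers, at 5 to 60 min. They cover the wild type, hog1, rrp6, edc2 and ckb1 ckb2 strains. RRP43 was above 0 in 36, from 0.05 to 0.87, and RRP46 in 35, from -0.03 to 0.68. RRP40 was above 0 in 31, MTR3 in 16, RRP42 and CSL4 in 10 each. In cells lacking HOG1, the kinase of the osmotic stress pathway, RRP43 read 0.47 and 0.58 at 20 min and RRP46 0.29 and 0.37. Neither was called in the hog1 strain (limma adjusted p = 0.225 and 0.336), and 0 of 10 members were, against 7.69% of all oligos; 1 member passed an unadjusted p under 0.05. Without the 26 arrays on which over 20% of spots were missing, the same RRP43 mean of 0.53 had an adjusted p of 0.0162. In a limma fit to these replicates alone its adjusted p was 0.0157. The difference between hog1 and wild-type cells was not tested. With TBB added to KCl, all 8 identifiers had both genes above 0, and RRP46 was called at 20 min (0.52) and 40 min (0.53).

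Other salts did not give the KCl pattern. RRP43 read -0.04 and 0.05 in NaCl and 0.02, -0.15 and -0.16 in LiCl at 20 min, and RRP46 read -0.20 and -0.15 in NaCl and -0.25, -0.91 and -0.51 in LiCl. The KCl replicates of both genes lay above every replicate of the other salts. In sorbitol at the same time RRP43 read 0.00 and RRP46 -0.18, with 1 identifier. KCl was set against LiCl by a test of the difference: 4 of 10 members were lower in LiCl than in KCl. Among all 1457 named oligos 30.3% differed in either direction, and 213 were lower in LiCl. The differences were -1.28 for MTR3 (limma adjusted p = 1.29e-07), -0.98 for RRP46 (8.33e-05), -0.74 for RRP43 (0.031) and -0.49 for RRP42 (0.0128). Within set H, which holds 2 LiCl replicates and 1 KCl replicate, they were -0.81, -0.96, -0.57 and -0.47. Both salts were used at different doses, and without replicate 2 of LiCl, 2 of the 4 differences were called, those of MTR3 (-1.11) and RRP46 (-0.81). KCl and NaCl were not tested against each other.

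**Figure D3:**
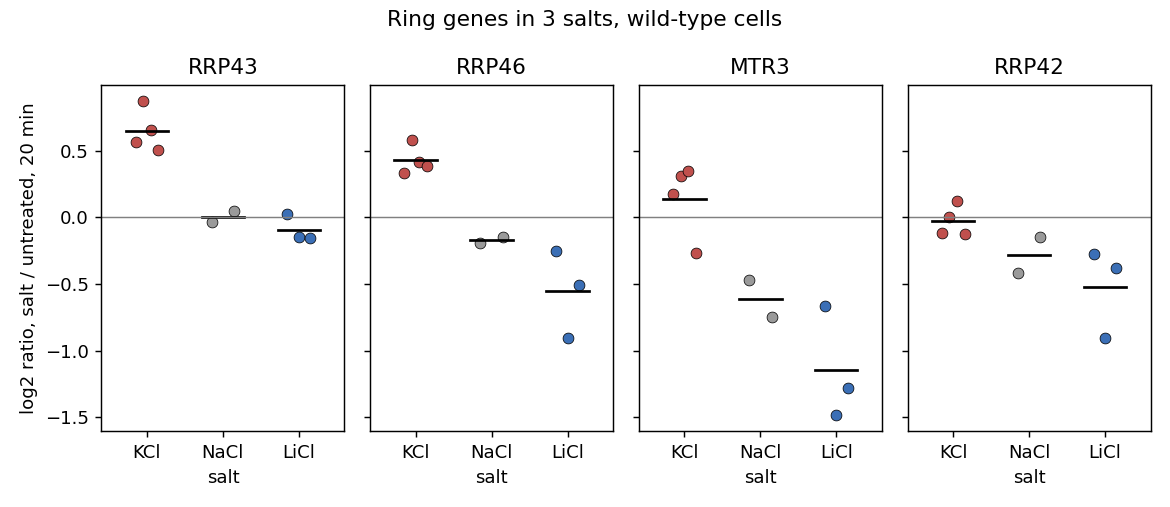
Log2 ratio over untreated cells of 4 ring genes (panels) after 20 min in KCl, NaCl and LiCl (horizontal axis), with 1 point per replicate and a bar at the mean. For RRP43 and RRP46 the 4 KCl points lie above all others, and for MTR3 the LiCl points reach -1.49.

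Among single treatments of wild-type cells, RRP46 fell in those other than KCl in which it was called. In LiCl its means were -0.48 at 10 min and -0.56 at 20 min, both called, though not without replicate 2 (-0.39 and -0.38) and, at 10 min, not without replicate 1 (-0.43). In heat it read -0.72 and -0.66 at 20 min, with a mean of -0.69 (limma adjusted p = 0.00336), and it was called at 10, 20 and 40 min, at 20 min not without the set A replicate. All 12 heat identifiers of both courses were below 0 for RRP46, from -0.78 to -0.27. RRP43, RRP45, SKI6, RRP4 and RRP40 were also below 0 in 12 of 12, with no call at any time. In wortmannin RRP46 read -0.50 and -0.65 at 20 min (mean -0.57, limma adjusted p = 0.041; both replicates needed) and fell again at 40 min, with a mean of -0.55. RRP43 and RRP46 were the 2 members most alike over the 79 group means, with Pearson's r of 0.79.

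RRP42, RRP45 and SKI6 are the remaining ring genes. RRP42 read -0.28, -0.90 and -0.38 in LiCl at 20 min, a mean of -0.52 ± 0.34 (SD, n = 3; limma adjusted p = 0.00022), and was also called at 5 and 10 min, with -0.34 and -0.37. The RRP42 calls in LiCl were lost without replicate 2 (-0.33 at 20 min), and those at 5 and 10 min also without replicate 3. RRP45 read -0.37 and -0.71 in LiCl at 20 min, where 1 of 3 replicates has no value, and its mean of -0.54 was called (limma adjusted p = 0.044), but not with any 1 of the 3 replicates left out. Without amino acids RRP45 read -0.43 and -0.93, the lower value from set B, and its mean of -0.68 was called (limma adjusted p = 0.0161) but not without set B. SKI6 varied least: its SD over the 79 group means was 0.147, lower than that of all but 5.08% of the named oligos, against 0.252 for the median oligo. Its 1 rise, in LiCl at 40 min, was a mean of 0.52 from replicates of 0.35, 1.12 and 0.09. The same replicate 2 gave DIS3 -1.14 there, against -0.01 and -0.08 in the others, so the DIS3 mean of -0.41 was also called. With that replicate left out, 1 of 10 members was called in LiCl at 40 min in place of 3, against 33% of all oligos with it.

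Of the cap genes, RRP4 and CSL4 rose early in 3-AT. RRP4 had log2 ratios of 1.26, 0.55 and 1.11 at 5 min, a mean of 0.97 ± 0.37 (SD, n = 3), which is 1.96-fold (limma adjusted p = 2.42e-08). At 10 min it read 1.14, 0.16 and 1.22 (mean 0.84, limma adjusted p = 6.47e-07), and at 20 min 0.83, -0.26 and 0.77 (mean 0.45, limma adjusted p = 0.0131). By 40 min it read 0.22 and -0.05, not called, so the level was high early and near that of the control later. The low value at each of the first 3 times came from set D, and leaving out either of the other replicates ends the call at 20 min. CSL4 was called at 5 min (0.51, 0.31 and 0.80, mean 0.54) and 10 min (0.54, 0.07 and 0.83, mean 0.48). RRP40 read 0.59, 0.27 and 0.66 at 5 min, a mean of 0.51 that was not called (limma adjusted p = 0.225), but was without the arrays missing over 20% of spots (limma adjusted p = 0.0158). RRP42 (0.39) and DIS3 (0.35) were called at 10 min. In all, 2 of 10 members rose at 5 min, where 3.43% of all oligos were called in either direction and 36 of 1457 rose. At 10 min 4 of 10 members rose, where 6.31% were called and 51 of 1457 rose. These member counts fell to 1 of 10 at each time without replicate 1, and also without replicate 3. With the treated RNA in Cy5 only they were 2 at each time, and in a fit to these replicates alone 4 at 5 min and 0 at 10 min. Of 8 chaperone oligos, 2 fell at 5 min (median -0.68) and 6 at 10 min (median -1.35), and their part in the result was not tested. Of all 1457 named oligos, 14 fell at 5 min and 41 at 10 min.

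RRP4 was lower where TBB was added to 3-AT than in 3-AT alone. The direct ratios were -0.55 and -0.60 at 5 min, -0.52 and -1.31 at 10 min, and -0.83 and -0.69 at 20 min. Their means of -0.58, -0.92 and -0.76 were called (limma adjusted p = 0.0145, 1.12e-05 and 0.000518). All 8 identifiers of this comparison were below 0 for RRP4, including -0.66 at 15 min and -0.12 at 40 min, with 1 identifier each. RRP4 was the only member called at these 3 times, where 5.42%, 8.1% and 5.83% of all oligos were called. The call at 5 min is lost with either replicate left out, that at 10 min without the set H replicate (-0.52), and that at 20 min without the set E replicate (-0.69). In the same comparison 8 of 8 chaperone oligos rose at 5 min (median 1.80) and 10 min (1.97) and 7 at 20 min (2.12), and their part in the result was not tested. Of all 1457 named oligos, 65, 71 and 57 rose at these times. In TBB alone over cells before treatment, with 1 identifier a time, RRP4 lay between -0.64 and -0.51. In the ckb1 ckb2 strain, which lacks the regulatory subunits of casein kinase 2, RRP4 in 3-AT over wild-type cells in 3-AT was -0.28, -0.38, -0.34 and -0.34 at 5, 10, 15 and 20 min, with 1 identifier a time and no test. Before treatment the same strain over wild type read -0.23.

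**Figure D4:**
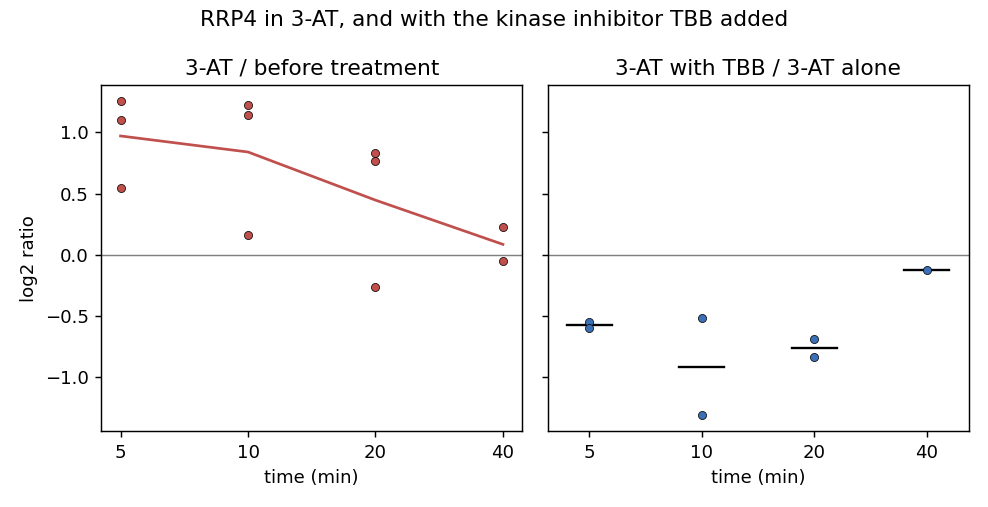
Log2 ratio of RRP4 (vertical axis) over time in min (horizontal axis, evenly spaced steps): 3-AT over cells before treatment, with a line through the means (left), and 3-AT with TBB over 3-AT alone, with a bar at each mean (right). Points are replicates; those on the left reach 1.26 at 5 min, and all on the right lie below 0.

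RRP4 fell early in LiCl, where all 12 identifiers were below 0: its means were -0.38 at 5 min and -0.49 at 10 min, both called, and -0.26 and -0.27 later, not called. Both calls were lost without replicate 2 (-0.31 and -0.36), and that at 5 min also without replicate 3. CSL4 (-0.40) and SKI6 (-0.28) were also called in LiCl at 5 min, though not without replicate 2 or without replicate 3, where 5 of 10 members were called against 20.3% of all oligos. At 10 min 4 of 10 were, against 29.4%. RRP40 did not fall in salt: at 20 min it read 0.51, 0.43, 0.38 and 0.12 in KCl, 0.47 and 0.47 in NaCl, and 0.49, -0.10 and 0.42 in LiCl. None of these means was called, with a limma adjusted p of 0.16 in KCl and 0.3 in NaCl. In limma fits to these replicates alone the adjusted p was 0.00898 in KCl and 0.000202 in NaCl. The shared fit also takes in the spread of RRP40 in other groups. RRP40 also had a replicate at -5.14, without glucose at 10 min in set B, on an array missing over 20% of its spots. Without such arrays, the KCl mean of 0.36 had an adjusted p of 0.013 and the NaCl mean of 0.47 one of 0.037. With the treated RNA in Cy5 only, the RRP40 means in KCl and NaCl were 0.20 and 0.12, not called.

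Without glucose the 2 replicates of several members stood apart, that of set B being the lower. At 5 min RRP43 read -1.08 and -0.44, RRP45 -1.78 and -0.22, and RRP46 -1.12 and -0.51, with set B first. DIS3 read -0.44 and -0.29 and RRP42 -0.47 and -0.28. All 5, with MTR3, were called downward, 6 of 10 members. Among all 1457 named oligos 28.8% were called in either direction, and 148 fell. At 10 min DIS3, MTR3, RRP40 and RRP46 were called, against 31.9% of all oligos, and at 40 min CSL4, MTR3, RRP43 and RRP46 were, against 31.8%. At 20 min RRP40 read -1.40 in set B and -0.22 in set F, and its call was lost without set B. DIS3, the nuclease gene, was below 0 in all 8 identifiers, from -0.66 to -0.21, and in all 8 without amino acids, from -0.52 to -0.18. Without amino acids its 20 min values of -0.32 and -0.52 gave a mean of -0.42 (limma adjusted p = 0.0199), lost with either replicate left out.

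The combination of 3-AT with KCl gave the largest number of members called, 10 of 10 downward at 10 min. Among all 1457 named oligos 31.6% were called in either direction, and 216 fell. The 2 replicates were far apart for most genes, however. In set B and set E, RRP43 read -2.59 and 0.25, CSL4 -1.01 and -0.08, RRP46 -0.92 and -0.11, MTR3 -0.96 and -0.81, and RRP4 -0.48 and -0.81. In a fit to these replicates alone 0 were called, and without arrays missing over 20% of spots 4. Without the set B replicate 2 members were called, MTR3 and RRP4, and the mean of RRP43 changed sign to 0.25. At 5 min 7 of 10 members were called, against 20% of all oligos, and at 20 and 40 min MTR3 and RRP45 were, against 27.2% and 28.4%. RRP4, which rose in 3-AT alone, read -0.81 and -0.86 in the combination at 5 min. The controls differ, since the combination was set over untreated cells of the same time and 3-AT alone over cells before treatment.

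In rapamycin the unsettled replicate opposed the others. At 20 min MTR3 read 0.75 in it and -0.75, -0.66 and -0.93 in the other 3, and RRP46 0.63 against -0.52, -0.77 and -0.63. As labelled, 1 member was called, RRP43, at -0.71, and it rests on 1 replicate of -2.47 beside -0.42 and -0.28. With the unsettled identifiers left out, 7 of 10 members were lower and called: RRP43 (-1.06), MTR3 (-0.78), RRP40 (-0.74), RRP46 (-0.64), RRP4 (-0.49), CSL4 (-0.39) and SKI6 (-0.30). With them turned, 7 were also called.

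Histidine depletion called no member. At 20 min 0 of 10 members were called in the his3 strain, against 0.686% of all oligos. In the HIS3 repaired strain 0 were called against 0%, and in the difference between both strains 0 against 0.0686%. At an unadjusted p under 0.05 the members also numbered 0 in each. At 40 min in the his3 strain 37 of the 1457 named oligos rose and 21 fell, and 0 members were called. At 5 and 10 min 0 oligos were called in that strain, so the absence of member calls there says little. The group means of the members in the HIS3 repaired strain lay between -0.09 and 0.21 at 20 min.

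In the strain lacking RRP6, the core genes were compared directly with wild-type cells in 4 courses: KCl, LiCl, before treatment and rapamycin. RRP46 was higher, with course means of 0.59, 0.48, 0.31 and 0.44 and a mean of 0.45 ± 0.12 (SD, n = 4), 1.37-fold (limma adjusted p = 0.00959). It was above 0 in 13 of 13 identifiers, from 0.24 to 0.76, and was the 1 member called, against 14.6% of all oligos. CSL4 (0.35, limma adjusted p = 0.0502) and RRP40 (0.36, limma adjusted p = 0.0533) were above 0 in 12 of 13 identifiers, RRP43 and MTR3 in 11, RRP4 in 10, RRP42 in 4. DIS3 differed between courses, with 0.46 in KCl and -0.05, -0.21 and -0.09 in LiCl, before treatment and rapamycin. The before-treatment course is 1 identifier, in which MTR3 and RRP4 read -0.12 and -0.07. Without it 4 members were called: RRP46, RRP4, RRP40 and MTR3. With each identifier taken as a replicate 6 were, but times of a course may share a culture. All 13 identifiers belong to set I, so a difference between the cultures of that set and the deletion cannot be told apart. Of the other exosome genes on the array, NRD1, an RNA-binding protein that ends short noncoding transcripts and brings in the exosome, rose by 1.27 (limma adjusted p = 0.0383), and RRP6 had a mean of -2.35.

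**Figure D5:**
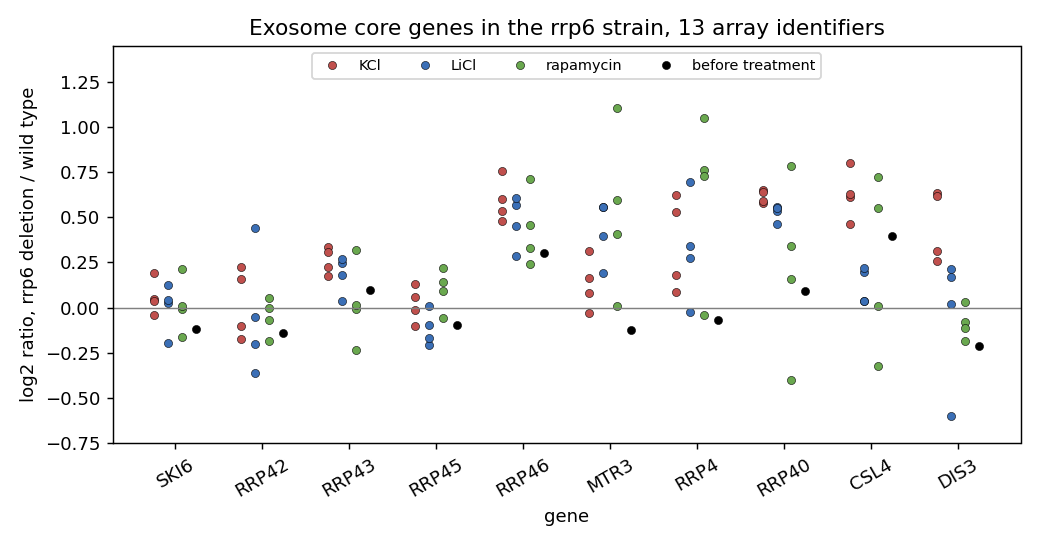
Log2 ratio of the rrp6 deletion strain over wild type (vertical axis) for the 10 core genes (horizontal axis), with 1 point per array identifier, coloured by course. All 13 RRP46 points lie above 0, from 0.24 to 0.76, and the points of RRP42, RRP45 and SKI6 lie on both sides of 0.

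Over the 79 replicated groups, calls were counted for each member as labelled. Falls numbered 22 for MTR3, 12 for RRP46, 8 for RRP4 and RRP45, 7 for RRP42, 6 for DIS3, 4 for CSL4 and RRP43, 3 for RRP40 and 2 for SKI6. Rises numbered 4 for RRP46, 3 for RRP4, CSL4 and RRP43, 1 for RRP42, DIS3 and SKI6, and 0 for MTR3, RRP40 and RRP45. The median named oligo was called 8 times. These counts include the groups with a set B replicate, and of the 76 falls of all members 27 lay in the other groups. The set B replicate was the lower one in 18 of 18 groups for RRP45 and 17 of 20 for RRP46. Counts for each member without those groups were not made, so the order of the members is not free of set B. With the set C identifiers turned, falls numbered 26 for MTR3, 17 for RRP46, 12 for RRP4, 10 for RRP45, 8 for DIS3, 7 for RRP42 and CSL4, 5 for RRP40 and SKI6 and 4 for RRP43, and rises 4 for RRP46 and RRP43, 3 for RRP4 and CSL4, 2 for RRP42 and DIS3, 1 for MTR3 and SKI6 and 0 for RRP40 and RRP45. The 45 pairs of members had Pearson's r between 0.23 and 0.79 over the group means, with a median of 0.47 for pairs within the ring, 0.37 within the cap and 0.50 between roles. MTR3 was most like RRP46 (0.71), DIS3 most like MTR3 (0.70) and SKI6 most like DIS3 (0.50). Outside the members, the oligos whose group means were most like the members' mean were those of RPA34 (0.89), RPA12 (0.88), NOC3 (0.88), RRP3 (0.87) and DBP6 (0.87). The median of other oligos was -0.06. Each member correlated with the mean of the other members at 0.55 (SKI6) to 0.82 (DIS3), below the values of these outside oligos. These correlations are descriptions over 79 groups that share controls and array sets.

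Genes around the exosome were read from lists of known members. Ribosome biogenesis factors, which work on the precursors that the exosome trims, had 46 oligos for the 44 listed genes that are on the array. Of these oligos 32 fell in LiCl at 20 min (median -0.88), 30 without amino acids (-0.83), 23 in NaCl (-0.64) and without glucose (-0.65), and 20 in heat (-0.45), against 5 in KCl (-0.02). Of all 1457 named oligos, 242 fell in LiCl at 20 min, 181 without amino acids and 120 in NaCl. Without glucose 201 of the 1457 fell, in heat 232 and in KCl 209. In 3-AT at 5 min 14 rose and none fell (median 0.52), among them RRS1, a 60S assembly factor, by 0.94. Of all 1457 named oligos 36 rose there. The median over all named oligos stayed between -0.02 and 0.04 in the comparisons for which lists were read. Of the nuclear cofactors, 7 of 11 listed genes are on the array, and at 20 min 4 fell in LiCl, 2 in heat, 2 without amino acids and 1 in NaCl. MTR4, the helicase that feeds RNA to the nuclear exosome, had a mean of -1.07 in LiCl, -0.71 in NaCl and -1.25 without amino acids, and RRP6 -0.72 in LiCl and heat and -0.98 without amino acids, all called. NRD1 rose by 0.81 in NaCl, the 1 rise of the list there, and fell by 0.63 in heat. In 3-AT, AIR1, an RNA-binding subunit of the TRAMP complex that marks RNA for the exosome, rose at 5 min (0.47), 10 min (0.51) and 20 min (0.41). Of the Ski complex, all 4 genes are on the array: SKI7, which ties it to the cytoplasmic exosome, rose in LiCl (0.56) and without glucose (0.78), and the helicase gene SKI2 had a mean of -0.35 in KCl and rose by 0.38 in 3-AT, all at 20 min. Decay from the 5′ end, with 18 oligos for 15 of 21 listed genes, had 6 called in KCl, 3 in LiCl and 6 without glucose, in both directions. Of all named oligos 29.2%, 33.8% and 29.1% were called in these treatments, so the counts are not results about this list. Chaperones, which mark the stress, had all 8 oligos up in heat (median 2.68) and LiCl (1.21) and 1 of 8 called in KCl, downward. In SMM 4 chaperone oligos fell (median -0.96), without amino acids 4 (-0.47) and in 3-AT at 20 min 3 (-0.61). Of all named oligos 56, 181 and 37 fell in these treatments.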

How the data were processed

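The deposited values are log2 ratios for each spot of 593 arrays, channel 1 over channel 2 per the labels; base 2 is assumed, and the authors' background correction and normalization are not given in the sources used here. Per the labels' protocols, RNA was extracted with acid phenol and labelled through aminoallyl-dUTP. Ratios were turned to treated over control, the 6 copies of an oligo averaged, and the dye orientations of an identifier averaged into 1 replicate. No deposited sample column was left out (0 not used).

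Groups with 2 or more replicates (79 groups, 195 values, 116 residual degrees of freedom) entered 1 limma 3.58.1 fit in R 4.3.3. Means, and differences of means, were tested two-sided, with Benjamini-Hochberg adjustment over 1457 named oligos and a threshold of 0.05. The rrp6 strain over wild type was fitted on 4 course means. The fit was tested on simulated data. Combined treatments came from the same fit, although they were no planned comparison of their own.

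All 10 members are named in every comparison; of each gene list, up to 3 called oligos with the largest means could be named. Members and lists were chosen with earlier results of these data known. The alternatives changed the averaging, centring, arrays, orientation, direction of set C, array set as a block, tested oligos, fit and replicates. Depth does not apply, and the files hold no intensities, so signal over background was not examined and the number of arrays limits the precision. Missing spots made up 0.033% to 64.1% of an array (median 4.64%), and 26 arrays were missing over 20%. The tables give no oligo sequence or exon position, and of the deleted genes only RRP6 and HOG1 were read. Locus tags are from the RefSeq gene table. Python 3.11.15 with pandas 2.3.3, numpy 2.4.6 and matplotlib 3.10.9 made summaries and figures.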

Additional observations from a re-analysis of the deposited data

Results flagged for a closer look

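A replicate far from the other 3 of its group was found in 6 of 130 tests, each of 1 member in 1 group of 4 replicates, a share near the 1 in 20 that chance gives. RRP40 in the HIS3 repaired strain without histidine at 20 min had a replicate at 0.47, the nearest other being 0.06. MTR3 in the same strain at 40 min had one at -0.13, with the nearest at 0.13, and RRP4 in the his3 strain at 40 min had one at -0.066, with the others between 0.02 and 0.03. RRP42 in KCl at 40 min had a replicate of 0.45, from set H, while the other 3 lay between -0.41 and -0.34. In rapamycin at 20 min MTR3 had a replicate of 0.75 and RRP42 one of 0.24, both from the identifier of unsettled direction, while the nearest others were -0.66 and -0.11.

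LiCl and KCl differed at 20 min, by limma's test of the difference, in MTR3 (-1.28, adjusted p = 1.29e-07), RRP46 (-0.98, 8.33e-05), RRP43 (-0.74, 0.031) and RRP42 (-0.49, 0.0128).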

How the results depend on the processing

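No paired analysis was possible because the labels give no replicate numbers that groups share; some groups do share array sets, which served as a random block (estimated correlation 0.195) and gave 51 of 360 (44) at 5, 10 and 40 min and 5 for LiCl minus KCl (4). Counts below are members called of 10 at 20 min. Without arrays missing over 20% of spots the count became 2 in NaCl (from 1), 5 without amino acids (3), 0 in rapamycin (1), 1 without glucose (2), 1 in wortmannin (2) and 1 in the hog1 strain (0). With the treated RNA in Cy5 only it became 2 in NaCl, 0 in 3-AT (1), 6 in rapamycin, 7 in wortmannin, 2 for LiCl minus KCl (4) and 2 for rrp6 over wild type (1), and 97 of 360 (44) at 5, 10 and 40 min. Without the oligos of largest spread between copies it became 1 in KCl (2), heat (2) and wortmannin. In fits to a group's own replicates it became 1 in LiCl (4), 3 in NaCl, 4 in wortmannin, 1 in hog1, and 0 in heat, 3-AT, rapamycin and without glucose. Turning the set C identifiers, or leaving them out, gave 7 in rapamycin; the median of copies gave 4 without glucose. For rrp6, single identifiers as replicates gave 6, and leaving out the before-treatment array gave 4.

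Leaving out 1 replicate, counts ranged from 1 to 2 in KCl, 1 to 3 in LiCl, 0 to 0 in NaCl, 0 to 2 in heat, 0 to 1 in 3-AT, 1 to 3 without amino acids, 0 to 7 in rapamycin, 1 to 4 without glucose, 0 to 0 in wortmannin, 2 to 4 for LiCl minus KCl and 1 to 4 for rrp6. RRP43 in 3-AT with KCl at 10 min ranged from -2.59 to 0.25, and was 0.25 without arrays missing over 20% of spots. The cause of these changes was not tested, apart from the smaller number of replicates. Counts in SMM, without nitrogen, inositol or histidine stayed at 0 under every alternative run. Of the single member values, under alternatives other than a left-out replicate, 379 kept their direction and side of the threshold, 65 kept their direction only and 1 reversed. A correction of single-orientation arrays for the dye effect, leaving out replicates of further groups, and the counts without set B were chosen after seeing the data; so were the counts with set C turned and KCl in 1 orientation. In 3-AT with KCl at 10 min (10 of 10) the count was 8 under that correction, the random block or the median of copies, 9 in Cy5 only, 4 without arrays missing over 20% of spots, 0 in the fit to these replicates alone and 2 or 9 without 1 replicate. RRP4 in TBB added to 3-AT lost its call at 5 min in Cy5 only, and at 10 min without such arrays and in the fit to these replicates alone.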

Other observations

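Courses with 1 identifier a time have values only. In TBB alone, over cells before treatment, 9 of 10 members were below 0 at all 4 times (5, 10, 20 and 40 min), with RRP40 at -0.97, CSL4 at -0.79, RRP46 at -0.75, MTR3 at -0.68 and RRP4 at -0.64 after 40 min; RRP45 was above 0 at 3 of 4 times, with a highest value of 0.18. In DTT at 1 and 10 mM, RRP43 was above 0 in 8 of 8 identifiers, from 0.18 to 0.68, while MTR3 had values of -0.97 and -0.78 after 40 min in the lower and the higher dose. In the rrp6 strain in KCl over the same strain untreated, RRP43 was above 0 and MTR3, RRP4 and RRP42 below 0 at all 4 times, with MTR3 between -0.81 and -0.45. In 3-AT with rapamycin, RRP4 read 0.97 at 5 min, 0.98 at 10 min, 0.06 at 20 min and -0.05 at 40 min.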
